A study of Rattus norvegicus with 14 samples.

Results

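Nrf2, encoded by Nfe2l2, its repressor Keap1 and 8 of its target genes were examined in rat colonocytes, the cells of the lining epithelium of the colon, after feeding on a high-protein diet (HPD) or a normal-protein diet (NPD). The genes were taken as a named set of 10, namely Nfe2l2, Keap1, Nqo1, Hmox1, Gclc, Gclm, Gsr, Txnrd1, Srxn1 and Slc7a11, and every non-control probe that the array design assigns to 1 of these names was used. All 10 were on the array, with 12 of its 30367 probes and among its 26276 gene names. Young male Wistar rats had free access for 15 days to an isocaloric diet in which milk protein supplied 14% (NPD) or 55% (HPD) of the energy. The HPD held less corn starch and sucrose in exchange, so more protein and less carbohydrate cannot be told apart. The colon apart from its distal end was perfused with EDTA, and the detached cells were collected. RNA of each rat was labelled with Cy3 and hybridised to a 1-colour Agilent array. There were 7 NPD and 7 HPD rats, with 1 array per rat, and the arrays that the study's methods set aside as outliers were not analysed here.

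Nrf2 is a transcription factor that is made continuously and destroyed continuously. Keap1, the sensor protein that holds it, hands it to a ubiquitin ligase built on Cul3. Electrophiles and oxidants modify cysteines of Keap1, newly made Nrf2 then escapes, enters the nucleus, pairs with a small Maf protein and binds the antioxidant response element in front of its target genes. These genes make and recycle glutathione, reduce thioredoxin, detoxify quinones and break down haem. The control acts on the Nrf2 protein, so the mRNA of Nfe2l2 and Keap1 is a measure apart from that of the target genes, and an array measures mRNA only. The question the diets pose is whether the richer supply of protein to the colon, where bacteria ferment what is not absorbed, went together with a change in this system in the epithelium.

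Each value is the hybridisation to a probe of 60 bases. The probes of the 2 regulators, of the target gene with the widest spread between rats (Nqo1), of the one with the lowest p among those well above background (Hmox1), and the dimmer of the 2 Txnrd1 probes, which differed in sign, are shown 5′ to 3′ as the array files give them, with no base singled out.
Nfe2l2: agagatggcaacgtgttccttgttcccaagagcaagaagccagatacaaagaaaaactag
Keap1: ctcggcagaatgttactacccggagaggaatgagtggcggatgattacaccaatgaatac
Nqo1: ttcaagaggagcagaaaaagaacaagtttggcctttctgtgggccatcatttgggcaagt
Hmox1: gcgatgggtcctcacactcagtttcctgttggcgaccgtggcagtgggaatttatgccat
Txnrd1: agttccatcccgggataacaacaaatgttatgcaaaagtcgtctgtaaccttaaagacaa

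On the rn4 build that the array files name, the Nfe2l2 probe lay at chr3:58367137-58367196 on the minus strand. The Keap1 probe lay at chr8:20260496-20260555 on the minus strand. The Nqo1 probe was at chr19:37251727-37251786 on the minus strand, and the Hmox1 probe at chr19:13969336-13969395 on the plus strand. The Txnrd1 probe shown was at chr7:23065196-23065255 on the minus strand. The brighter Txnrd1 probe is listed over 34 bases of the genome only, and the Gsr probe over 894 bases. The Gclm probe stood out by its base composition, with 15.0% G and C, where the other probes of the set had 30.0% to 55.0%. No annotation of rn4 was used here, so exons and introns are not given.

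The antioxidant response element has the core TGACNNNGC. In RefSeq promoters of GRCr8, which hold 250 bases before and 50 bases after a gene's start, this core was found on either strand in 12.1% of 33469 promoters. The table matched 8 of the 10 genes with 9 promoters, since Txnrd1 has 2, and 3 of the 9 had a match: those of Gclm, Nfe2l2 and 1 of Txnrd1. The match in the Nfe2l2 promoter lay after the start of the gene. Those of Gclm and Txnrd1, shown because the core lies upstream of the gene, were on the opposite strand to the gene, and the capitals mark the core read from the gene's own strand.
Gclm: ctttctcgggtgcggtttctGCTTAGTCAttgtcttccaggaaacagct
Txnrd1: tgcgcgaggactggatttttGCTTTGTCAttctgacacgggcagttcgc

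The first window is at chr2:213031943-213031991 on the plus strand and the second at chr7:22755954-22756002 on the minus strand, both of GRCr8. The core read on the other strand was TGACTAAGC for Gclm and TGACAAAGC for Txnrd1. A match is a match of letters, and the arrays measured no binding.

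An NPD array had 18856 to 20414 probes whose signal was well above background, an HPD array 18094 to 19787, and no spot was saturated. NPD arrays were brighter, with a median net signal over probes of 149.2 ± 22.3 (SD, n = 7), where HPD arrays had 111.6 ± 13.1 (SD, n = 7), and each array's values were set to its own median before comparison. The arrays lay on 2 slides, with 4 NPD and 3 HPD arrays on slide 1 and 3 NPD and 4 HPD arrays on slide 2. With slide added to the model, its term passed a q-value of 0.1 for 12164 probes, or 40.1%, and for 4 of the 10 genes described here, so values within each slide are given. All 9 epithelial markers (such as Epcam and Krt20), all 6 markers of absorptive colonocytes and all 6 of goblet cells had signals well above background throughout the 14 arrays. Of 12 immune markers 6 did so, while Cd4 and Cd163 did so on none, and of 9 stromal and muscle markers 8 did, with Col3a1 on none. The median log2 fold change (HPD minus NPD) was 0.08 for the epithelial list, 0.30 for the absorptive list, -0.39 for the goblet list, -0.19 for the immune list and -0.08 for the stromal list. Their part in the results below was not tested. In cells collected in bulk, fewer cells of a type and less RNA per cell cannot be told apart.

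None of the 10 genes was called differentially expressed between the diets. In limma with Benjamini-Hochberg adjustment over all 30367 probes, their adjusted p ranged from 0.417 to 0.817, where 17 probes (0.056%) passed a q-value of 0.1. That number of probes rested on single arrays, being 151 without HPD 1 (65 higher and 86 lower) and 9 without NPD 4 or without NPD 6. At an unadjusted p under 0.05, 3 of the 10 passed in limma (Keap1, Hmox1 and Gclm), each lower in the HPD group, where 11.4% of all probes did so. The same 3 passed 0.05 in the exact two-sided permutation test over the 1716 splits of the arrays, and also with the arrays regrouped within slides. For the exact tests no share over all probes is at hand to set beside this count. Of the 3, Gclm was well above background on 1 array only. When only the probes well above background throughout at least 1 diet were fitted, 2825 of 17951 had an unadjusted limma p under 0.05. Beside these stand Keap1 and Hmox1, 2 of the 9 genes well above background on all arrays. Of the 9 genes that were well above background on all 14 arrays, 3 had a log2 fold change below 0 (Keap1, Hmox1 and Txnrd1) and 6 above 0, with a median of 0.11. Over all probes 35.8% were below 0 and the median was 0.11. Over the 15698 genes whose brightest probe was well above background throughout at least 1 diet, 41.8% were below 0 and the median was 0.059. The groups overlapped for every probe of the set, while they lay apart for 0.273% of all probes.

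**Figure D1:**
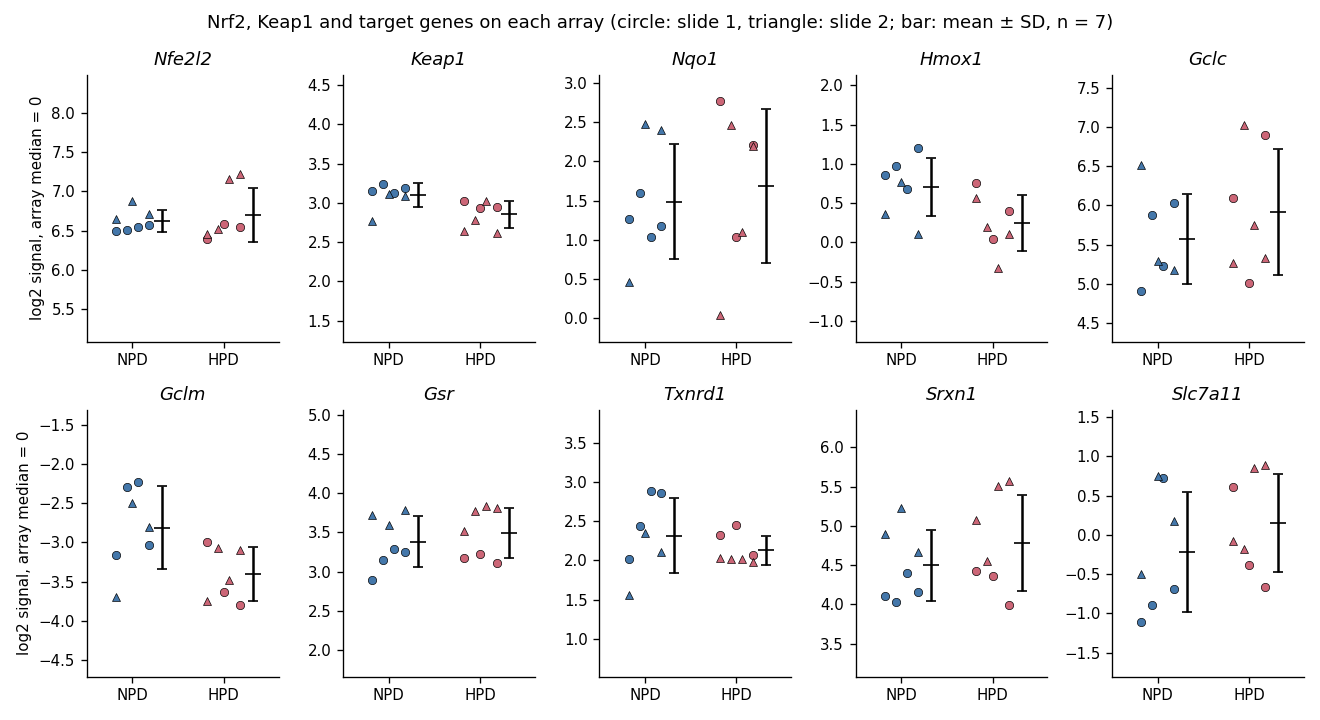
Log2 signal of the brightest probe of each gene on each array, with 0 at the array's median probe (NPD blue, HPD red, circles slide 1, triangles slide 2, bars mean ± SD, n = 7), all panels spanning the same range. The Keap1 and Hmox1 values of the HPD group sit lower with overlap, Nqo1, Gclc and Slc7a11 spread widely within both diets, and Gsr and Srxn1 lie higher on slide 2.

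Signals below are on the log2 scale with 0 at the array's median probe, and differences are the HPD group minus the NPD group. Nfe2l2, which encodes Nrf2 itself, was close between the diets. Its signal ran from 6.50 to 6.88 with a median of 6.58 in the NPD group, and from 6.39 to 7.22 with a median of 6.55 under the HPD. The NPD range lay within the HPD range, and the 2 highest rats of all were HPD rats 6 and 7, both on slide 2. The log2 fold change was 0.07 ± 0.15 (SE, n = 7 per diet; limma adjusted p = 0.808), with a 95% interval from -0.24 to 0.39, that is from 0.847 to 1.31 times the NPD level. It was -0.025 within slide 1 and 0.094 within slide 2, and its sign turned with quantile normalization (-0.019) and with the deposited table (-0.066).

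Keap1, the repressor, was the most even of the genes between rats. Its signal ran from 2.77 to 3.24 with a median of 3.13 in the NPD group, and from 2.61 to 3.03 with a median of 2.94 under the HPD. All 7 HPD rats were below the NPD mean, and the overlap came from 1 rat, NPD 5, at 2.77. The NPD mean of 3.097 ± 0.154 (SD, n = 7) compared with an HPD mean of 2.854 ± 0.175 (SD, n = 7), a log2 fold change of -0.24 ± 0.11 (SE; limma adjusted p = 0.434), or 0.845 times with a 95% interval of 0.717 to 0.995. The exact two-sided permutation p was 0.0221 over all splits and 0.0188 within slides, and the difference was -0.20 within slide 1 and -0.22 within slide 2. With 1 array left out it lay between -0.30 (without NPD 5, limma adjusted p = 0.304) and -0.20 (without HPD 7).

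The call on Keap1 depended on the processing. It passed a q-value of 0.1 with normexp background correction (-0.33, limma adjusted p = 0.0893), where 16.9% of all probes did so. It also passed when slide was a block in the fit of the deposited table (-0.31, limma adjusted p = 0.056), where 10.5% of all gene names did so. With normexp and slide together both Keap1 and Hmox1 passed, where 27.9% of all probes did so. Keap1 was below 0 in every setting tried.

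Among the target genes, Nqo1, which reduces quinones with both electrons at once and is the classic reporter of Nrf2 activity, was the most variable between rats. Its signal ran from 0.46 to 2.47 with a median of 1.26 in the NPD group, and from 0.04 to 2.76 with a median of 2.19 under the HPD. The lowest and the highest rat of all were both in the HPD group (HPD 4 and HPD 1), so that levels differed 6.59-fold within that diet and 4.04-fold within the NPD group. The pooled SD within diets, 0.86, was at the 98.4th percentile of the 17008 probes well above background on all arrays, whose median SD was 0.29. The log2 fold change was 0.20 ± 0.42 (SE; limma adjusted p = 0.817), with a 95% interval from 0.617 to 2.14 times. Single rats moved it between 0.021 (without HPD 1) and 0.47 (without HPD 4). It was 0.73 within slide 1 and -0.33 within slide 2, and this difference between slides was not tested.

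Hmox1, haem oxygenase 1, which cleaves haem to biliverdin, iron and carbon monoxide, had lower values in the HPD group. The NPD rats ran from 0.11 to 1.20 with a median of 0.76, and the HPD rats from -0.33 to 0.76 with a median of 0.19. Of the 7 HPD rats 6 were below the NPD mean, and the groups overlapped over most of the HPD range. The mean was 0.71 ± 0.37 (SD, n = 7) under the NPD and 0.25 ± 0.36 (SD, n = 7) under the HPD, a log2 fold change of -0.46 ± 0.19 (SE; limma adjusted p = 0.418), or 0.727 times with a 95% interval of 0.548 to 0.964. The exact two-sided permutation p was 0.0367 over all splits and 0.0351 within slides. The difference was -0.53 within slide 1 and -0.28 within slide 2, and the values were also lower on slide 2 (slide term -0.39, limma adjusted p = 0.0841). Of its spots 7 on 4 HPD arrays and 0 on NPD arrays were left out as marked outliers, and with them kept the log2 fold change was -0.44 (limma adjusted p = 0.424). Hmox1 is also made by macrophages: the immune markers summed to between 22.5 and 60.4 times the array's median signal in the NPD group and between 22.5 and 30.8 in the HPD group (exact two-sided permutation p = 0.214), while of 4 markers of macrophages and other myeloid cells Cd68 had a log2 fold change of 0.005, Csf1r 0.24, Itgam 0.34 (unadjusted limma p = 0.0437) and Lyz2 -0.56 (unadjusted limma p = 0.0348), with no single direction. Their part in the Hmox1 values was not tested.

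**Figure D2:**
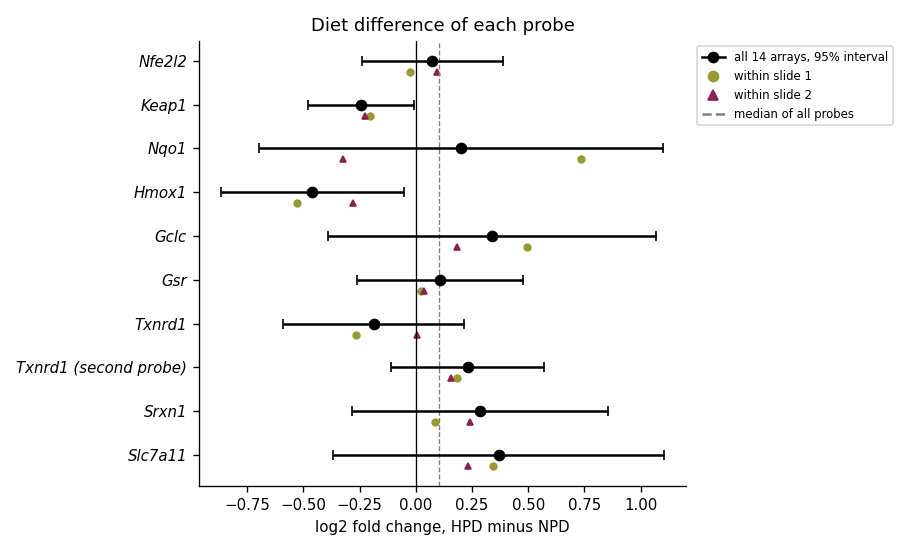
Log2 fold change (HPD minus NPD) of each probe well above background on all 14 arrays, with limma's 95% interval, and the difference within slide 1 (circles) and slide 2 (triangles). The intervals of Keap1 and Hmox1 lie just below 0, all others span 0, and the Nqo1 values of the 2 slides lie on either side of 0.

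Glutathione is made in 2 steps, of which the first, by glutamate-cysteine ligase, sets the rate. Its catalytic subunit Gclc also varied widely. The NPD rats ran from 4.90 to 6.51 with a median of 5.29 and the HPD rats from 5.01 to 7.02 with a median of 5.75, with 4 of 7 HPD rats above the NPD mean. The log2 fold change was 0.34 ± 0.34 (SE; limma adjusted p = 0.629), with a 95% interval from 0.762 to 2.10 times, and it was 0.49 and 0.18 within the 2 slides. It came to 0.15 without HPD 5, 0.17 without HPD 3 and 0.49 without NPD 5. The spread between rats, a pooled SD of 0.70 at the 96.4th percentile, was larger than the difference.

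Gclm, the regulatory subunit that makes the ligase more efficient, could hardly be measured. Its probe was well above background on 1 NPD array and on none of the HPD arrays. Its dim signals averaged -2.82 ± 0.53 for the NPD rats and -3.40 ± 0.34 for the HPD rats (SD, n = 7 each; limma adjusted p = 0.417). All 7 HPD rats were below the NPD mean with an exact two-sided permutation p of 0.0361, or 0.0498 within slides. No fold is given, because the NPD mean lay below a floor of -2.11 averaged over the HPD arrays. That floor came from the lowest signals counted as well above background on the HPD arrays, and none is given for the NPD arrays. With the mean pixel signal, which has no background subtracted, the difference was 0.013.

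Slc7a11, the cystine carrier that brings in the cysteine for glutathione, had its values spread widely too. With the brighter of 2 probes, NPD rats ran from -1.10 to 0.75 with a median of -0.50, and HPD rats from -0.67 to 0.90 with a median of -0.07. Of the HPD rats 5 of 7 were above the NPD mean, and the log2 fold change was 0.37 ± 0.34 (SE; limma adjusted p = 0.603), with a 95% interval from 0.775 to 2.15 times. Spots of this probe on NPD 1, NPD 2, NPD 5 and HPD 6 were left out as marked outliers. With them kept the log2 fold change was 0.295 (limma adjusted p = 0.656). The other probe was well above background on no array and gives no fold. Gsr, the reductase that returns oxidised glutathione to its reduced form, differed little. The NPD rats ran from 2.89 to 3.78 with a median of 3.29 and the HPD rats from 3.105 to 3.83 with a median of 3.52. The log2 fold change was 0.11 ± 0.17 (SE; limma adjusted p = 0.761), with a 95% interval from 0.835 to 1.39 times. Gsr separated the slides instead, since every array of slide 1 was at or below 3.29 and every array of slide 2 at or above 3.52 (slide term 0.56, limma adjusted p = 0.00103). Within the slides the diets differed by 0.021 and 0.036.

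The last pair serve the thioredoxin branch. Txnrd1, the cytosolic thioredoxin reductase, had a pair of probes well above background on all arrays that differed in sign. The brighter gave NPD values of 1.55 to 2.88 with a median of 2.35 and HPD values of 1.98 to 2.44 with a median of 2.03, a log2 fold change of -0.19 ± 0.19 (SE; limma adjusted p = 0.627). The dimmer, whose sequence is shown above, gave NPD values of 0.74 to 1.61 with a median of 1.30 and HPD values of 1.06 to 1.84 with a median of 1.40, a log2 fold change of 0.23 ± 0.16 (SE; limma adjusted p = 0.515). Averaged, they gave 0.022, so these data set no direction for Txnrd1. The slide moved them in opposite directions as well, by -0.41 for the brighter (limma adjusted p = 0.0648) and by 0.42 for the dimmer (limma adjusted p = 0.0121).

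Srxn1, sulfiredoxin, which repairs overoxidised peroxiredoxins, ran from 4.03 to 5.23 with a median of 4.40 in the NPD group and from 3.99 to 5.57 with a median of 4.55 under the HPD. Its log2 fold change was 0.28 ± 0.27 (SE; limma adjusted p = 0.604), with a 95% interval from 0.82 to 1.81 times. Every array of slide 2 lay above every array of slide 1 (slide term 0.83, limma adjusted p = 0.00259), and the diets differed by 0.086 within slide 1 and 0.24 within slide 2.

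Keap1 and Hmox1 were below 0, and Gclc, Srxn1 and Slc7a11 above 0, in every setting tried, while Nfe2l2, Nqo1, Gsr and Txnrd1 changed sign in at least 1. The number of members called was 0 in the values reported, with cyclic loess, with slide as a block and in the deposited table as it stands. Cyclic loess also moved the median of all probes from 0.11 to 0.00.

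**Figure D3:**
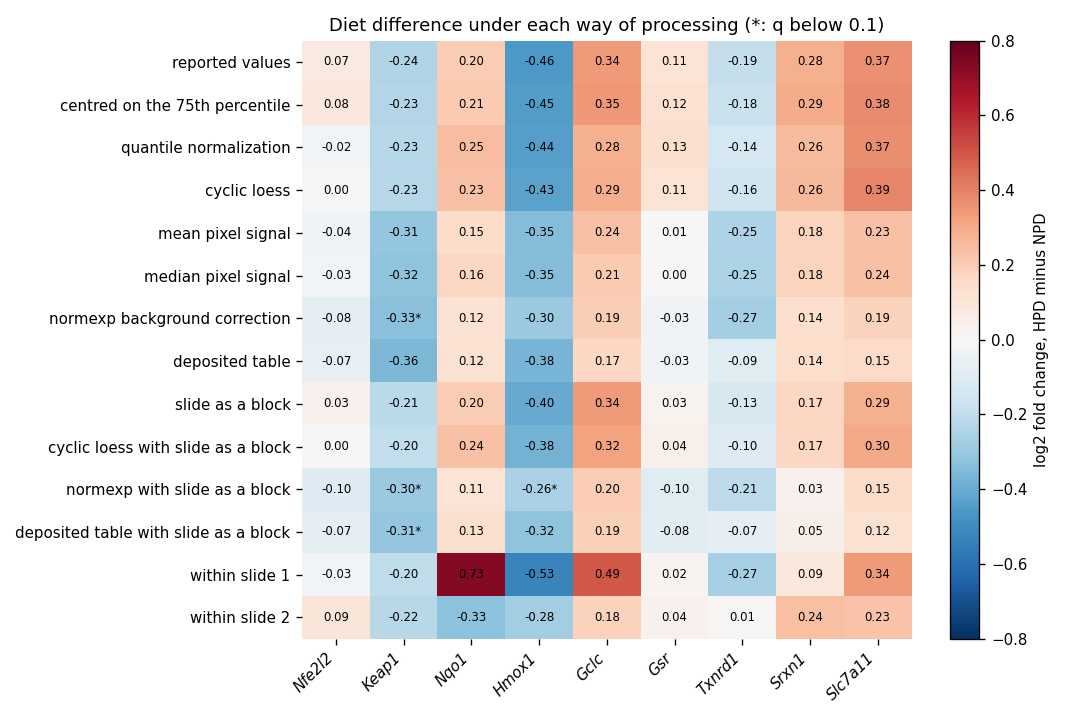
Log2 fold change (HPD minus NPD) of the 9 genes well above background on all arrays under 14 ways of processing (rows), with red for higher and blue for lower in the HPD group and a star where the q-value was below 0.1. The Keap1 and Hmox1 columns are blue throughout, stars stand in those 2 columns only, and the Nqo1 column turns from red within slide 1 to blue within slide 2.

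The wider pathway was described by 70 genes in 7 lists, of which 68 were on the array and 62 were well above background throughout at least 1 of the diets. None was called at a q-value below 0.1 in limma (lowest adjusted p = 0.386). At an unadjusted limma p under 0.05 there were 2 higher and 8 lower in the HPD group, 10 of 68 or 14.7%, beside 11.4% of all probes. In the fit of only the probes well above background throughout at least 1 diet, 2825 of 17951 had such a p. Of the 68, 32 were below 0, or 47.1%, beside 35.8% of all probes, and their median log2 fold change was 0.027 beside 0.11 for all probes. The genes well above background in at least 1 diet, described above, had 41.8% below 0 and a median of 0.059. The number below 0 depended on the processing. It was 36 of 68 with slide as a block (beside 39% of all probes) and 37 with cyclic loess (beside 49.9%). In the deposited table it was 45 of 68, beside 41.4% of all gene names. In the fit of the deposited table, which called 18 of 26414 gene names (0.0681%), 1 gene of the lists was among them, Mgst1, named here after its values were seen. It is the membrane-bound glutathione S-transferase (-0.78, limma adjusted p = 0.0681; -0.77 in the values reported, limma adjusted p = 0.386, lower than the NPD mean in 7 of 7 HPD rats).

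In each list the highest and the lowest gene are given among those well above background throughout at least 1 diet, while counts and medians cover the whole list.

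Among the 10 genes of the degradation and release of Nrf2, 7 were above 0 and 3 below, with a median of 0.10. Cul3, the scaffold of the ligase that Keap1 serves, had a log2 fold change of 0.19 ± 0.12 (SE; limma adjusted p = 0.504). The highest was Amer1, a partner that binds Keap1 (0.32, limma adjusted p = 0.441), and the lowest Gsk3b, the kinase that marks Nrf2 for a second, Keap1-independent route of degradation (-0.25, limma adjusted p = 0.434; 6 of 7 HPD rats below the NPD mean). Of 9 partners and competitors at DNA, 5 were above 0 and 4 below. Mafg, a small Maf that pairs with Nrf2, was at -0.10 (limma adjusted p = 0.678), and Bach1, which competes with Nrf2 and represses Hmox1, was at -0.028 (limma adjusted p = 0.919). The highest was the coactivator Crebbp (0.33, limma adjusted p = 0.512) and the lowest Bach2 (-0.11, limma adjusted p = 0.818).

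Of the 10 genes of glutathione supply and use, 5 were above 0 and 5 below. Gss, which completes glutathione after the ligase, was at -0.27 (limma adjusted p = 0.464), and Slc3a2, the heavy chain that carries Slc7a11 to the membrane, at -0.34 (limma adjusted p = 0.445), each below the NPD mean in 6 of 7 HPD rats. The highest was the glutaredoxin Glrx (0.23, limma adjusted p = 0.515) and the lowest Abcc3, an exporter of conjugates (-0.39, limma adjusted p = 0.421). In the thioredoxin and peroxiredoxin list 4 of 6 were below 0 with a median of -0.28. Txn1, thioredoxin itself, was at 0.18 (limma adjusted p = 0.54), turning to -0.022 with cyclic loess, and the lowest was Prdx1, a peroxiredoxin that removes hydrogen peroxide (-0.85 ± 0.39 SE, limma adjusted p = 0.437).

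NADPH powers both reductases and Nqo1. Of its 5 suppliers 4 were above 0, with Me1, malic enzyme, the highest (0.24, limma adjusted p = 0.575) and Idh1, cytosolic isocitrate dehydrogenase, alone below 0 (-0.61, limma adjusted p = 0.425). Of 20 genes that handle quinones, carbonyls and electrophiles, 13 were below 0, from Gstm1, a glutathione S-transferase (-0.80, limma adjusted p = 0.417), to the aldo-keto reductase Akr1b8 (0.69, limma adjusted p = 0.472). Gstm1 has close relatives in its family, and whether its probe also takes up their mRNA was not tested. Of 8 genes of haem and iron handling 6 were above 0, the highest Fth1, the ferritin heavy chain (0.29, limma adjusted p = 0.423; 7 of 7 HPD rats above the NPD mean; 0.08 with cyclic loess and 0.15 in the deposited table), and the lowest Blvra, which reduces the biliverdin that Hmox1 makes (-0.50, limma adjusted p = 0.439). The red blood cell markers summed to between 36.5 and 61.3 times the array's median signal in the NPD group and between 46.2 and 151.9 in the HPD group (exact two-sided permutation p = 0.00991). Their part in the haem and iron values was not tested.

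**Figure D4:**
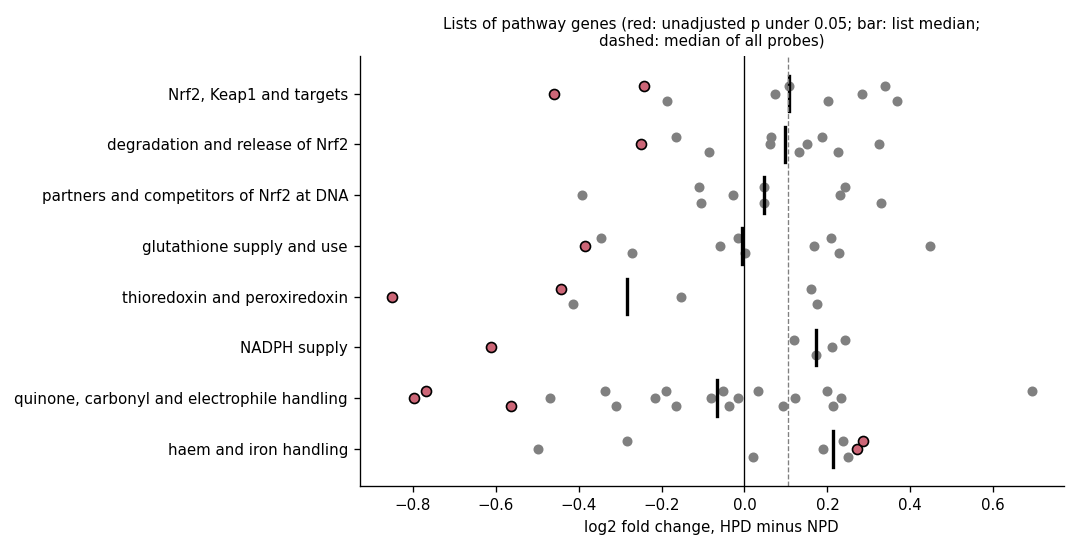
Log2 fold change (HPD minus NPD) of the brightest probe of each gene, for the 9 genes well above background on all arrays and the 7 lists of pathway genes (red for an unadjusted limma p under 0.05, bar for the list median, dashed line for the median of all probes). The 2 red points above 0 lie in the haem and iron list, and the thioredoxin and peroxiredoxin list has the lowest median.

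Whether genes of the set rose and fell together from rat to rat was measured over the 14 arrays after the mean of each diet on each slide had been removed. Of the 45 pairs 33 had a Pearson's r above 0, with a median of 0.19. With cyclic loess there were also 33 (median 0.16), and with only the diet means removed 27 (median 0.062). No such count for pairs of other probes is at hand to set beside these. With the means of diet and slide removed, 3 pairs had a permutation p under 0.05 and none after Benjamini-Hochberg adjustment over the 45. Srxn1 and Slc7a11 had r = 0.71 and Spearman's rho = 0.69 (exact permutation p = 0.00535 and 0.0168, adjusted p = 0.173 and 0.263), and r = 0.73 without the 2 arrays farthest from the median of Srxn1. Nqo1 and Gclm had r = 0.71 and rho = 0.67 (exact permutation p = 0.00767 and 0.012, adjusted p = 0.173 and 0.263), with r = 0.55 without 2 arrays. Gclm and Slc7a11 had r = 0.68 and rho = 0.74 (exact permutation p = 0.0211 and 0.0175, adjusted p = 0.317 and 0.263), with r = 0.58 without 2 arrays. Both pairs with Gclm rest on its dim probe. Nfe2l2 and Keap1 had r = 0.28 and rho = 0.19 (exact permutation p = 0.64 and 0.625, adjusted p = 0.80 and 0.815), with r = 0.53 without 2 arrays.

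**Figure D5:**
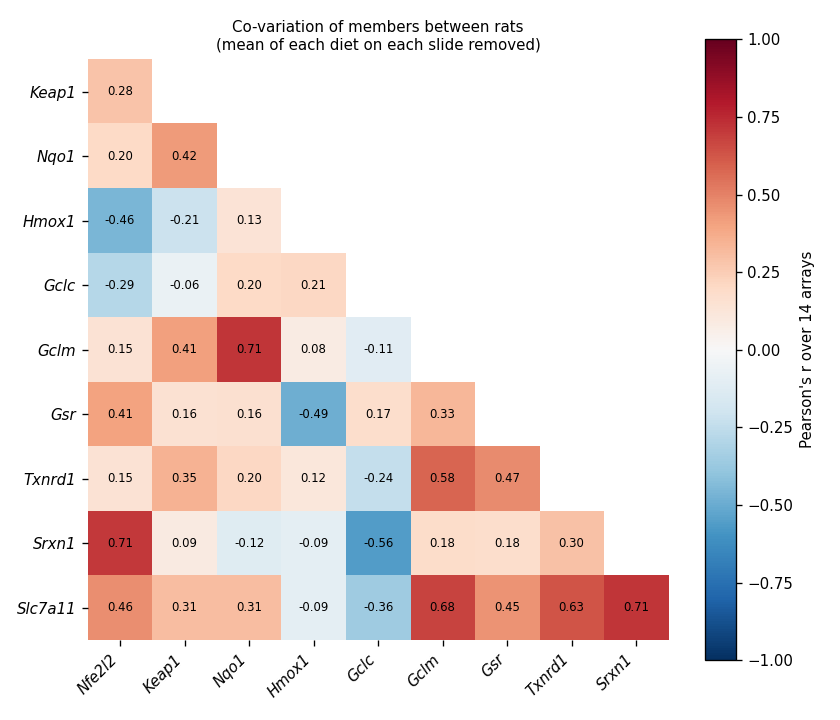
Pearson's r over the 14 arrays between the brightest probes of the 10 genes after the mean of each diet on each slide was removed (red above 0, blue below 0). The highest values, about 0.71, belong to Nqo1 with Gclm, Srxn1 with Slc7a11 and Nfe2l2 with Srxn1, and the lowest, -0.56, to Gclc with Srxn1. Of these highest pairs, Nfe2l2 with Srxn1 had an exact permutation p of 0.128 (adjusted p = 0.655).

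The genes whose brightest probe followed Nfe2l2 most closely over these 14 arrays, among 14935 compared, were Yipf4 (r = 0.97), Cox17 (r = 0.96) and Ssu72 (r = 0.95). For Keap1 the first 2 were RGD1359127 (r = 0.92) and Ceacam10 (r = 0.88). For Nqo1 they were a probe without a gene name, Ddb1 (r = 0.87) and RGD1306502 (r = 0.87), the first with r = 0.90. No gene of the Nrf2 set was among them, but so few of 14935 genes are named that this says little about the set. These are the highest of many correlations over few arrays and are given as a description.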

How the data were processed

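Colonocyte RNA of 7 NPD and 7 HPD rats was measured on 1-colour arrays, and groups and replicate numbers were taken from the sample labels. The authors deposited scanner output of Agilent Feature Extraction 10.7.3.1, with a linear intensity per spot before and after background subtraction, and normalized log2 values by gene name. Per the study's methods these were centred within each array and averaged over repeated spots, while the signal column and the statistic used for centring are not given in the sources used here. Controls were dropped, as were spots the scanner software marked as outliers (13 spots of these genes, 7 of them Hmox1 spots on HPD arrays), and the background-subtracted intensity was log2-transformed, spots of a probe were averaged and each array was centred on its median. The diet effect was fitted in limma 3.58.1 under R 4.3.3 (diet as the only term, Benjamini-Hochberg over 30367 probes, q-value below 0.1, no filter on signal), which was tested on simulated data. A probe was well above background on an array where over 50% of its spots were so marked. Exact permutation tests used 1716 splits or 1225 regroupings within slides, and correlations 20736 orderings within diet and slide. Where only the diet means were removed, the correlations used 100000 random orderings within diet. The probe with the highest mean signal stood for a gene. Named were all members, of each list the called genes or else the highest and the lowest among those well above background, with Cul3, Bach1, Mafg, Slc3a2, Gss and Txn1, and the 3 genes most like Nfe2l2, Keap1 and Nqo1, of which 1 is not reported here. The genes and lists were chosen with earlier results of these data known. The alternatives were other signal columns, normexp (offset 50), other centring and normalization, a filter on dim probes, slide or replicate number as a block, a variance trend, a q-value below 0.05, the mean of all probes, the deposited values, keeping outlier spots, and leaving out each array. For the lists, only cyclic loess, slide as a block and the deposited values were used. The number of arrays limits the precision. Sequences are from the array files and from RefSeq promoters (GRCr8). Amer1, Bach2, Glrx, Sesn2 and Ftl1 were matched to the array's older names through RefSeq synonyms.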

Additional observations from a re-analysis of the deposited data

Results flagged for a closer look

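In 2 of the 24 sets of 7 arrays that a probe and a diet make, 1 array stood apart from the other 6 by more than the 95% critical value of Dixon's ratio, where chance gives about 1 in 20. The first was Keap1 on NPD 5, at a log2 signal of 2.77 where the other NPD arrays lay between 3.09 and 3.24 (ratio 0.67). The second was the dimmer Slc7a11 probe, well above background on no array, on HPD 7, at -1.37 where the other HPD arrays lay between -4.63 and -3.30 (ratio 0.592).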

How the results depend on the processing

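The number of members called at a q-value below 0.1 was 0 and became 1 with normexp background correction (Keap1), 1 when slide was a block in the fit of the deposited table (Keap1) and 2 with normexp and slide as a block (Keap1 at -0.30, limma adjusted p = 0.0405, and Hmox1 at -0.26, limma adjusted p = 0.0763). That last setting, cyclic loess with slide as a block and keeping the spots marked as outliers were chosen after seeing the data. Normexp itself called 5142 probes, normexp with slide 8479, the fit of the deposited table with slide 2767 gene names, and the values reported 17 probes, and the cause was not tested. The lists were fitted only with cyclic loess, with slide as a block and in the deposited table, not with normexp or with slide in the deposited table. The list genes called went from 0 to 1 in the deposited table (Mgst1), and those below 0 went from 32 to 45 of 68 there. The pairs of members with an adjusted p under 0.05 went from 0 to 2 where only the diet means were removed (Nfe2l2 with Srxn1 and Gsr with Srxn1, each at 0.0441 by Pearson's r, and by Spearman's rho at 0.0983 and 0.0391, while Srxn1 with Slc7a11 had 0.0985 and 0.0391), a setting that keeps the difference between slides in the values (slide term 0.27 for Nfe2l2, 0.56 for Gsr and 0.83 for Srxn1). Nfe2l2 turned below 0 with the mean pixel signal (-0.035), the median pixel signal (-0.025), normexp (-0.077), normexp with slide (-0.10), quantile normalization (-0.019), the deposited table (-0.066, and -0.073 with slide), within slide 1 (-0.025), and without HPD 6 or HPD 7 (between -0.013 and 0.12 over all arrays left out). The dim Gclm signals turned to 0.013 with the mean and 0.008 with the median pixel signal, to 0.036 with normexp and to 0.028 with normexp and slide. Gsr turned to -0.029 with normexp, -0.10 with normexp and slide, -0.03 in the deposited table and -0.082 there with slide. Nqo1 was -0.33 and Txnrd1 0.007 within slide 2, Txnrd1 was 0.022 as the mean of its probes, and Txn1 was -0.022 with cyclic loess. The deposited table also gave smaller differences for Amer1 (0.18), Crebbp (0.15), Cul3 (0.052), Glrx (0.075), Me1 (0.074) and Txn1 (0.038), and larger ones for Gsk3b (-0.38) and Mafg (-0.20). Leaving out 1 array moved Gsr between 0.027 and 0.17, Srxn1 between 0.15 and 0.42, Slc7a11 between 0.22 and 0.53 and the brighter Txnrd1 probe between -0.31 and -0.093. Of 445 values of single genes under an alternative, 22 changed sign, 4 passed the threshold and 419 did neither. With the replicate number as a block 0 members were called and the adjusted p of Keap1 was 0.215. Same-numbered arrays correlated between -0.09 (number 4) and 0.386 in their deviations. Number 4 was the only one with its arrays on different slides, so shared number and shared slide largely coincide. Among arrays of the other diet, the most alike was that of the same number for 5 of 14 arrays. The share that chance would give was not computed. The labels give no shared origin, so the numbers were not taken to pair the rats, and whether they do was not tested. Leaving out each array called 0 members.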
